A study of Mus musculus with 6 samples.

Results

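The cytosolic ribosomal protein genes are the nuclear genes for the proteins of the small and large subunits of the ribosome that translates cytoplasmic mRNA. They were taken from the table of raw counts as protein-coding rows with a matching symbol and counts that summed to at least 60 over 6 mice. Rplp0 to Rplp2 and Rpsa matched. So did a symbol made up wholly of Rps or Rpl, a number, and optionally a, x, y or l and more digits. Of 55487 rows in the table, 83 had such a name and 80 reached that sum: 32 genes of the small subunit, 45 of the large subunit and 3 of the P-stalk, the flexible arm of the large subunit that recruits elongation factors. Just outside the minimum were Rpl39l with 22 counts, Rpl3l with 13 and Rpl10l with 0, and just inside were Rpl29 with 205 counts, Rps10 with 363 and Rpl21 with 498.

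RNA-seq was performed on mammary epithelial cells (MECs) of 10-week-old virgin female mice, 3 WT BALB/c mice and 3 BALB/c mice carrying the IL-21isoTg transgene, which makes T cells express a membrane-bound isoform of the cytokine IL-21. Each library came from 1 mouse, so the genotype comparison rests on 3 against 3 mice. MECs were the cells that remained after magnetic removal of cells stained for CD45, CD31 and CD140a, which mark leukocytes, endothelial cells and fibroblasts, and estrous stage was randomized. The transgene is thus expressed in T cells and not by design in the MECs sequenced here.

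Outside the P-stalk a ribosome carries a single copy of each protein, and cells keep the mRNAs of these proteins at high and coordinated levels. Many of these mRNAs begin with a cytosine and a run of pyrimidines, the 5′ terminal oligopyrimidine (TOP) tract, through which mTOR signalling controls their translation. The mouse genome also holds many processed pseudogenes of these genes, intronless copies of the mRNA that can be nearly identical to it, and a few genes have expressed paralogs with tissue-restricted roles.

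To show what these genes share at their starts, 30 bases around the RefSeq start of 8 of them are given, 10 before the start and 20 from it, in the orientation of the gene on GRCm38.p6, with an uninterrupted TOP tract in capitals. The first 4 have a tract at the annotated start and the last 4, which include 3 paralogs, do not.

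Rpl28 (chr7:4792955-4792984, plus strand): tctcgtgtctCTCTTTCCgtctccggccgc
Rps18 (chr17:33955646-33955675, minus strand): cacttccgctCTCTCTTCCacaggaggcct
Rps10 (chr17:27635225-27635254, minus strand): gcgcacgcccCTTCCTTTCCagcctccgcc
Rps27 (chr3:90213629-90213658, minus strand): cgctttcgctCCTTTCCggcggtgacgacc
Rps27l (chr9:66946076-66946105, plus strand, the first of its listed starts): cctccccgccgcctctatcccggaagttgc
Rpl22l1 (chr3:28805498-28805527, plus strand): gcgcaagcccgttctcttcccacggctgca
Rpl7l1 (chr17:46782637-46782666, minus strand): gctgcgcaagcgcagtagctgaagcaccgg
Rplp0 (chr5:115559457-115559486, plus strand): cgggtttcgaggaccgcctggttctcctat

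A promoter window of 300 bases, 250 before the start and 50 from it, was found by symbol for 60 of the 80 genes. A tract of at least 5 pyrimidines beginning with C exactly at an annotated start was present for 13 of the 60 genes (21.7%), against 3.01% of the 27025 genes with a window. The letters CCGGAAG, searched on both strands, were present for 25 of the 60 genes (41.7%) against 9.93% of all genes, and AAGATGGC, also on both strands, for 6 (10.0%) against 3.19%. TATAAA, searched before the start on the strand of the gene, was present for 2 of the 60 (3.33%) against 8.94%. These are matches of letters at annotated starts, and a start that is a few bases away from the one used would be counted as having no tract.

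The libraries held between 15902886 and 25719244 counts. Luminal markers were abundant in every library, with a summed level of 6143 to 10403 CPM (counts relative to the TMM-scaled size of the library). Basal markers summed to 1843 to 2225.5 CPM in WT and 2074.5 to 3479.5 CPM in IL-21isoTg mice. Of 9 basal markers 8 were higher in IL-21isoTg mice, with a median log2 fold change of 0.51. In edgeR's quasi-likelihood test 2 of the 9 had an unadjusted p under 0.05 and 0 an adjusted p under 0.05. Transcripts of salivary glands were abundant as well. A list of 15 salivary gland markers took 22.5%, 6.49% and 15.4% of counts in WT and 22.1%, 4.84% and 40.1% in IL-21isoTg libraries, and the third IL-21isoTg library stood apart. Among cells that the selection should remove, the 6 endothelial markers together measured 88.4 to 221.9 CPM in WT and 136 to 306 CPM in IL-21isoTg mice, and the 7 fibroblast markers 1965 to 3507 and 4374 to 5054 CPM. The part of these cells, or of basal cells, in the results below was not tested. In bulk samples, fewer cells of a type and less RNA per cell cannot be told apart.

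The first question was whether the total output of ribosomal protein mRNA differed between the genotypes. The 80 genes took 4.11%, 4.39% and 3.83% of all counts in WT and 3.31%, 4.37% and 2.12% in IL-21isoTg mice. The lowest share was that of the third IL-21isoTg library, and the second IL-21isoTg mouse lay within the WT range, so the groups overlapped. The means were 4.11% ± 0.281 in WT and 3.27% ± 1.12 in IL-21isoTg mice (SD, n = 3 each), with p = 0.3 by a two-sided exact permutation test, whose smallest possible p is 0.1 with 3 against 3 mice. Relative to the counts outside the salivary gland list, the shares were 5.3%, 4.7% and 4.53% in WT and 4.25%, 4.59% and 3.54% in IL-21isoTg mice (exact permutation p = 0.2). The salivary counts are part of the denominator, and with them set aside the log2 ratio of the group means was -0.23 in place of -0.33. Without the third IL-21isoTg library the log2 ratio over all counts was -0.10.

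**Figure D1:**
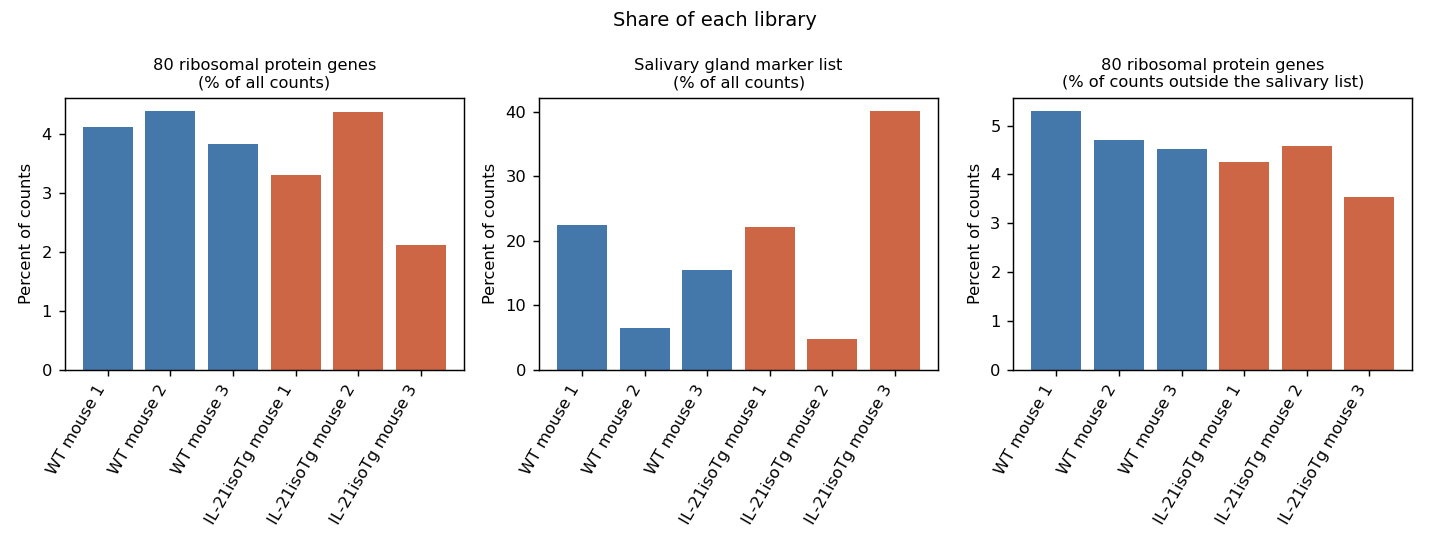
Bars give, for each of 6 libraries, the percentage of counts on the 80 ribosomal protein genes (left), on the 15 salivary gland markers (middle), and on the ribosomal protein genes among the counts outside the salivary list (right), with WT mice in blue and IL-21isoTg mice in orange. The third IL-21isoTg mouse has the lowest ribosomal share (2.12%) and the highest salivary share (40.1%), and the genotypes overlap in the left and middle panels and in the right panel.

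Both subunits followed this total. The small subunit genes took 1.72% ± 0.114 of all counts in WT and 1.35% ± 0.478 in IL-21isoTg mice, and the large subunit genes 2.17% ± 0.156 and 1.73% ± 0.583 (SD, n = 3; exact permutation p = 0.3 for each). The P-stalk genes took 0.228% ± 0.0126 and 0.189% ± 0.0628 (exact permutation p = 0.4). Of 20 such comparisons of shares, made for 5 sets of rows on 4 denominators, the smallest exact permutation p was 0.1, for the small subunit genes among counts outside the salivary list, where the shares were 2.19%, 1.96% and 1.9% in WT and 1.76%, 1.9% and 1.43% in IL-21isoTg mice. Its Benjamini-Hochberg adjusted p over the 20 was 0.5.

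Gene by gene, no ribosomal protein gene was called different between the genotypes. In edgeR's quasi-likelihood test over 17165 genes, 0 of the 80 had an adjusted p under 0.05, where 0.0% of all genes tested were called, and the smallest adjusted p among the 80 was 0.809. At an unadjusted p under 0.05 the count was 0 of 80, against 5.81% of all genes tested. DESeq2's Wald test and limma-voom called 0 of the 80 as well, while DESeq2 called 0.492% of the genes it tested. In none of the 80 genes did the 3 IL-21isoTg mice lie entirely above or below the 3 WT mice, a pattern found in 12.1% of all genes tested.

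The direction of the small differences was mostly downward. Of the 80 genes 64 had a negative and 16 a positive log2 fold change, with a median of -0.11 and a range from -0.73 to 0.32. Over all 17165 genes tested the median was -0.02, with 8939 genes lower. Genes measured in the same libraries are not independent, so these counts of genes are descriptions and not tests. The median was -0.12 for the small subunit (26 of 32 genes lower), -0.13 for the large subunit (35 of 45 lower) and -0.04 for the P-stalk (3 of 3 lower). It was -0.11 both for the 13 genes with a TOP tract at the start and for the 47 genes with a window and no tract. The 18 genes of the list that are mutated in Diamond-Blackfan anaemia, an inherited failure of red cell production, had a median of -0.10 with 14 lower. The median of the 80 depended on 2 libraries: it was -0.02 without the first WT mouse, with 51 genes lower, and -0.03 without the third IL-21isoTg mouse, with 50 genes lower.

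How closely the data bound these differences can be read from the 95% intervals. All 80 intervals included 0. For 72 of the 80 genes the interval excluded a change of 2-fold in either direction, and for 42 it lay within 1.5-fold. The other 8 genes were Rpl7a, Rpl24, Rps2, Rpl17, Rps10, Rpl21, Rpl30 and Rpl29, whose values per mouse are given below.

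**Figure D2:**
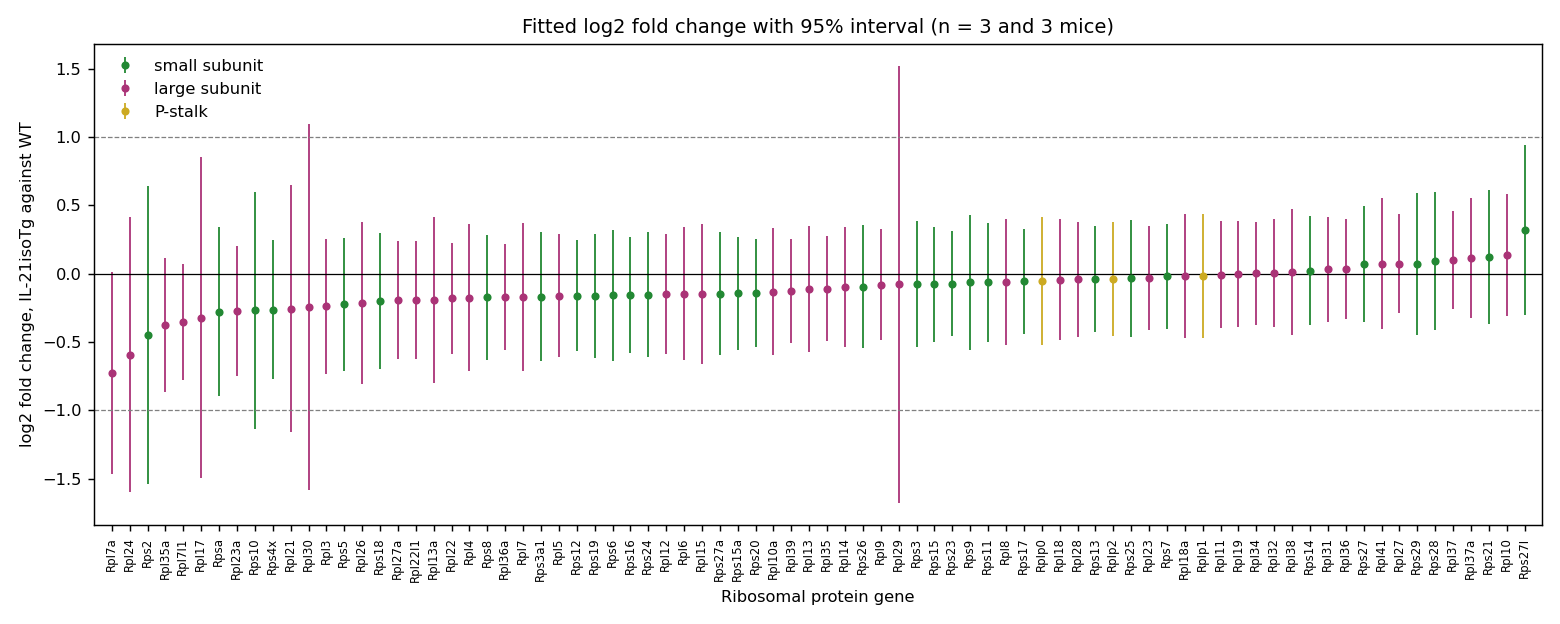
Points give the fitted log2 fold change of each of the 80 genes (IL-21isoTg against WT, 3 mice each) and lines its 95% interval, ordered by fold change and coloured by subunit, with dashed lines at 2-fold in each direction. All 80 intervals include 0, and Rpl29 has the widest.

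Rpl7a, a large subunit protein that binds ribosomal RNA, had the smallest p of the 80 genes. It lies at chr2:26910764-26913318 on the plus strand and measured 418, 299 and 182 CPM in WT mice and 155, 154 and 236 CPM in IL-21isoTg mice. The third IL-21isoTg mouse was above the third WT mouse, and the spread within WT was wider than the distance between that mouse and the transgenic mice. The log2 fold change was -0.73 ± 0.32 (SE; 95% interval -1.46 to 0.01; unadjusted p = 0.0535, adjusted p = 0.809 in edgeR's quasi-likelihood test). With the rows of its near-identical copies added, the log2 fold change was -0.45, and without the first WT mouse it was -0.39.

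The next genes in the downward direction were Rpl7l1, Rpl35a, Rpl24 and Rpl23a. Rpl7l1, a paralog of Rpl7 with a role in ribosome assembly, measured 75.4, 55.7 and 53.1 CPM in WT and 45.7, 54.1 and 44.0 CPM in IL-21isoTg mice, and the second IL-21isoTg mouse lay above the lowest WT mouse (log2 fold change -0.36 ± 0.18, SE; unadjusted p = 0.0895 in edgeR's test). Rpl35a, one of the Diamond-Blackfan genes, measured 17.2, 11.5 and 15.2 CPM in WT and 11.4, 11.5 and 10.8 CPM in IL-21isoTg mice, a difference of -0.38 ± 0.21 on the log2 scale (SE). The 3 transgenic mice lay close to one another and to the lowest WT mouse. Rpl24, whose product joins the large subunit late in its assembly, measured 9.88, 4.18 and 4.90 CPM in WT and 5.28, 4.73 and 2.42 CPM in IL-21isoTg mice (log2 fold change -0.59 ± 0.44, SE), and Rpl23a, a protein near the exit of the peptide tunnel, 614, 498 and 455 CPM against 427, 499 and 368 CPM (-0.28 ± 0.21). In both genes the first WT mouse was the highest and the third IL-21isoTg mouse the lowest. Without the first WT mouse the log2 fold changes were -0.10 for Rpl24, -0.13 for Rpl23a, -0.17 for Rpl7l1 and -0.23 for Rpl35a, and without the third IL-21isoTg mouse they were -0.33 for Rpl24 and -0.17 for Rpl23a.

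In the upward direction the 5 genes with the smallest p were Rps27l, Rpl10, Rpl37, Rpl37a and Rps21, with unadjusted p between 0.27 and 0.587 in edgeR's test. Rps27l, a paralog of Rps27 that the tumour suppressor p53 is known to induce, measured 81.7, 57.6 and 66.0 CPM in WT and 69.7, 64.7 and 122 CPM in IL-21isoTg mice. One library, the third IL-21isoTg mouse, was above all others and the remaining mice of both genotypes overlapped, and the log2 fold change of 0.32 ± 0.27 (SE) was -0.02 without that library. Rpl10, which completes the large subunit by joining near its catalytic centre, measured 887, 767 and 728 CPM in WT and 902, 823 and 894 CPM in IL-21isoTg mice (log2 fold change 0.14 ± 0.19). The other genes of this direction, Rpl37 with 279, 313 and 308 CPM against 328, 322 and 313 CPM, Rpl37a with 292, 409 and 398 CPM against 407, 394 and 387 CPM, and Rps21 with 208, 333 and 320 CPM against 330, 299.6 and 307 CPM, shared a low value in the first WT mouse. These 3 genes have short coding sequences.

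The first WT mouse and the third IL-21isoTg mouse stood at the ends of the profile of the whole family. Of the 80 genes 47 were highest in the first WT library and 60 were lowest in the third IL-21isoTg library. The median log2 level of the 80 genes was 8.83, 8.71 and 8.64 in WT mice and 8.72, 8.74 and 8.54 in IL-21isoTg mice (exact permutation p = 0.6). The other 4 libraries lay between these extremes, within 0.11 of each other on the log2 scale.

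The tilt of these libraries went with coding length. Across the 80 genes the Spearman correlation between coding length and the deviation of a gene from its own mean was 0.51, -0.08 and -0.24 in WT mice and -0.32, 0.21 and -0.37 in IL-21isoTg mice, a description across genes that share a library. In the first WT mouse the 20 genes with the longest coding sequence had a median deviation of 0.30 on the log2 scale and the 20 with the shortest one of 0.015. In the third IL-21isoTg mouse the medians were -0.23 and -0.08. Rps28, a small subunit protein with one of the shortest coding sequences (207 bases), measured 143 CPM in the first WT mouse and 214 to 242 CPM in the 5 others, and Rps29, of 168 bases, 66.0 CPM against 76.0 to 111 CPM; both were picked out after their values were seen.

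**Figure D3:**
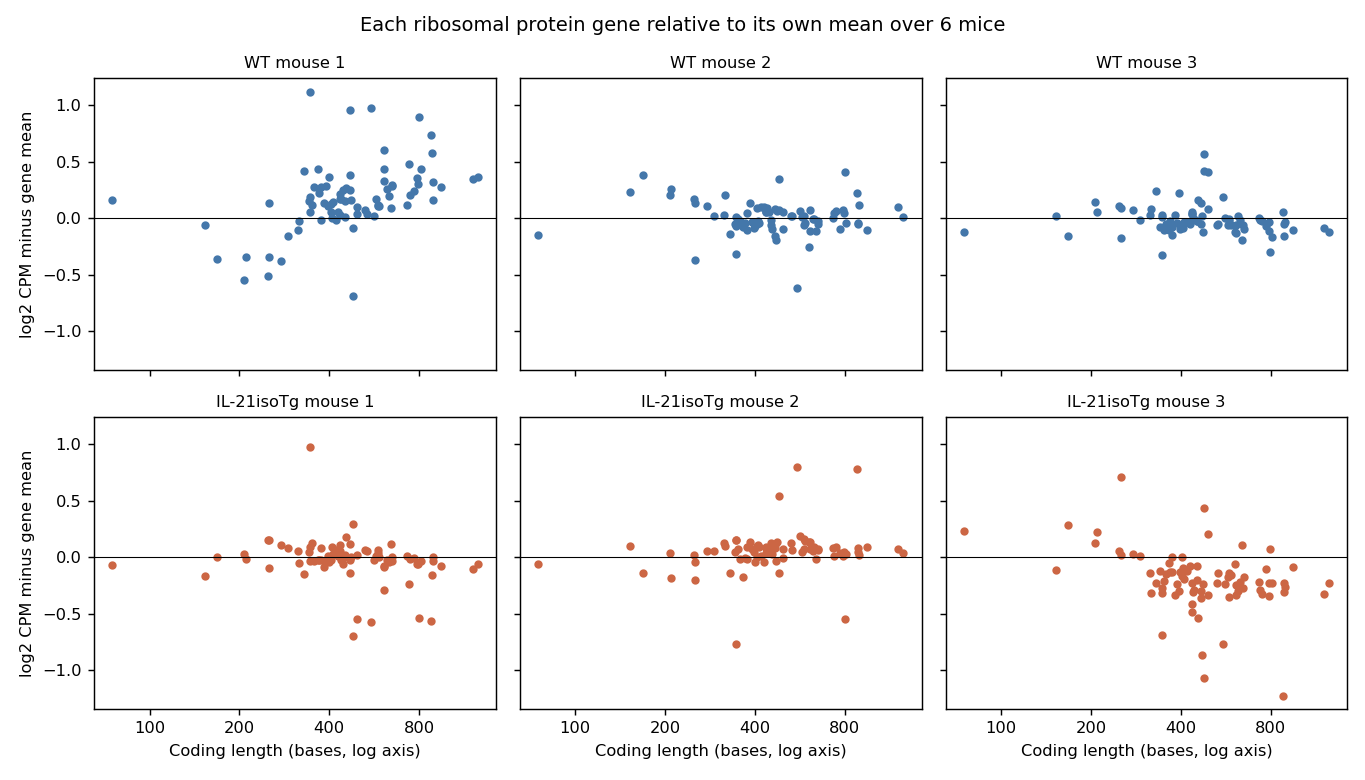
Each panel is 1 mouse (WT in blue, IL-21isoTg in orange), and each point 1 of the 80 genes, with its coding length on a log axis and its log2 CPM minus its mean over the 6 mice. In the first WT mouse the points rise with length (Spearman 0.51), and in the third IL-21isoTg mouse most points are below 0.

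The ribosomal protein genes had a smaller median spread over the 6 mice than all genes tested. The SD of log2 CPM over the 6 mice had a median of 0.179 for the 80 genes, against 0.333 for all genes tested and 0.404 for the 196 other genes whose mean CPM was at least that of the median ribosomal protein gene. Those 196 include salivary transcripts such as Bpifa2, which ranged from 23309 to 372440 CPM over the 6 mice. With each library expressed relative to its median ribosomal protein gene, the median SD was 0.118 and the range 0.021 to 0.777. No other set of genes was centred in this way, so whether the ribosomal protein genes moved together was not tested. The steadiest were Rpl9, with a relative SD of 0.021, Rplp1 with 0.035 and Rpl28 with 0.039. Rpl9 measured 553, 495 and 471 CPM in WT and 494, 507 and 434 CPM in IL-21isoTg mice, Rplp1, a P-stalk protein, 1080, 940 and 922 CPM against 1004, 1003 and 895 CPM, and Rpl28 614, 539 and 541 CPM against 565, 593 and 487 CPM. Each of the 3 followed the order of the libraries given by the median gene at its extremes, highest in the first WT mouse and lowest in the third IL-21isoTg mouse. The 3 genes were chosen for a small SD relative to the median gene, so likeness to it follows from the choice.

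The 3 least steady genes were Rpl30, Rpl17 and Rps2, and their variation did not follow genotype. Rpl30, which in yeast is known to bind its own transcript, measured 44.3, 16.05 and 15.93 CPM in WT and 40.1, 11.7 and 12.3 CPM in IL-21isoTg mice, so that the first mouse of each genotype was high (relative SD 0.777). Rpl17, a protein at the exit tunnel, measured 447, 147 and 258 CPM in WT and 152, 396 and 133 CPM in IL-21isoTg mice (relative SD 0.705). Rps2, a core protein of the small subunit, measured 71.8, 50.1 and 44.5 CPM in WT and 28.8, 74.2 and 18.1 CPM in IL-21isoTg mice (relative SD 0.701). In all 3 genes the highest and lowest mice of the 2 genotypes overlapped widely, and the fitted log2 fold changes of -0.25 ± 0.58, -0.32 ± 0.51 and -0.45 ± 0.47 (SE) were smaller than their standard errors. They moved widely with single mice: Rps2 was at -1.24 without the second IL-21isoTg mouse (unadjusted p = 0.00461, adjusted p = 0.506 in edgeR's test) and at -0.11 without the third, Rpl17 between -0.99 and 0.17 and Rpl30 between -1.08 and 0.44.

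These 3 genes have abundant near-identical copies elsewhere in the annotation, and adding the copies changed their spread. A copy was a transcript of another gene that matched at least 50% of the coding sequence of a ribosomal protein gene with an identity of at least 95%. For Rpl30 the own row held 11.7% of the counts of gene and copies, with 19.9%, 7.36% and 8.07% in WT mice and 18.9%, 5.77% and 6.81% in IL-21isoTg mice, and most of the remaining counts were on 1 processed pseudogene, Gm12191, with 22827. With the copies added the relative SD of Rpl30 was 0.050 in place of 0.777. For Rpl17 it was 0.066 in place of 0.705, where the own row held 57.4%, 22.7% and 41.0% of the counts in WT and 23.9%, 56.9% and 23.3% in IL-21isoTg mice. The pseudogene Rpl17-ps10 had 3298, 6120 and 3414 counts in WT and 6048, 3149 and 2480 in IL-21isoTg mice, and in the 2 mice where the own row of Rpl17 held most of the family counts this row was low for the depth of the library. For Rps2 the relative SD was 0.185 in place of 0.701, and its log2 fold change -0.13 in place of -0.45.

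**Figure D4:**
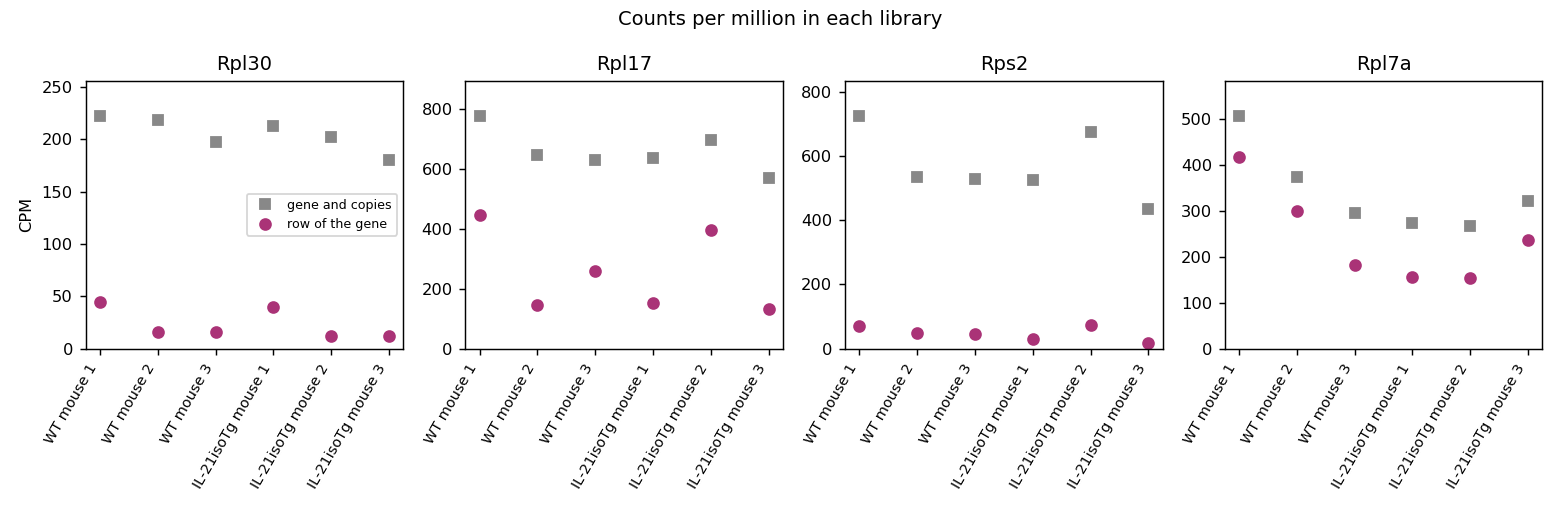
Circles give the CPM of the gene's own row and squares the CPM of the gene and its near-identical copies together, in each of 6 mice, for Rpl30, Rpl17, Rps2 and Rpl7a, with vertical axes that start at 0. For Rpl30 and Rpl17 the squares vary little beside the circles (relative SD 0.050 against 0.777 and 0.066 against 0.705), while for Rpl7a both follow the same order of mice at the top, with the first WT mouse highest.

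Copies were a general feature of the family. Of the 80 genes 77 had at least 1 copy, with 606 copies in all, of which 593 were annotated as pseudogenes and 520 had at least 1 count. Copies held 15.2% of the counts of genes and copies together, 831825 against 4627785 on the genes themselves. Their counts as a share of each library followed the genes, with 0.762%, 0.792% and 0.674% in WT and 0.595%, 0.772% and 0.383% in IL-21isoTg mice. The own row held at least 95% of the family counts for 39 genes and less than 50% for 11.

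Those 11 were Rpl26, Rps10, Rpl29, Rpl21, Rps18, Rps2, Rpl30, Rpl35a, Rpl24, Rpl17 and Rplp0. Rpl26, a regulator of p53 translation and a Diamond-Blackfan gene, is the extreme, with 924 counts on its own row and 64443 on the processed pseudogene Gm15772, which matches its coding sequence over 435 bases at 99.5% identity. Rps10 held 363 counts against 13733 on Rps10-ps2, and Rps18 5270 against 44307 and 32316 on Rps18-ps6 and Rps18-ps5, rows that are annotated as protein-coding but matched no name in the rule. Rplp0 held 98997 counts and Gm8730, at 98.7% identity, 104148. All 11 had a negative fold change, with a median of -0.26, against -0.08 for the 69 others (53 of 69 lower). In the fit with copies added to each row the median over the 80 genes was -0.11, with 67 lower and 0 called.

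**Figure D5:**
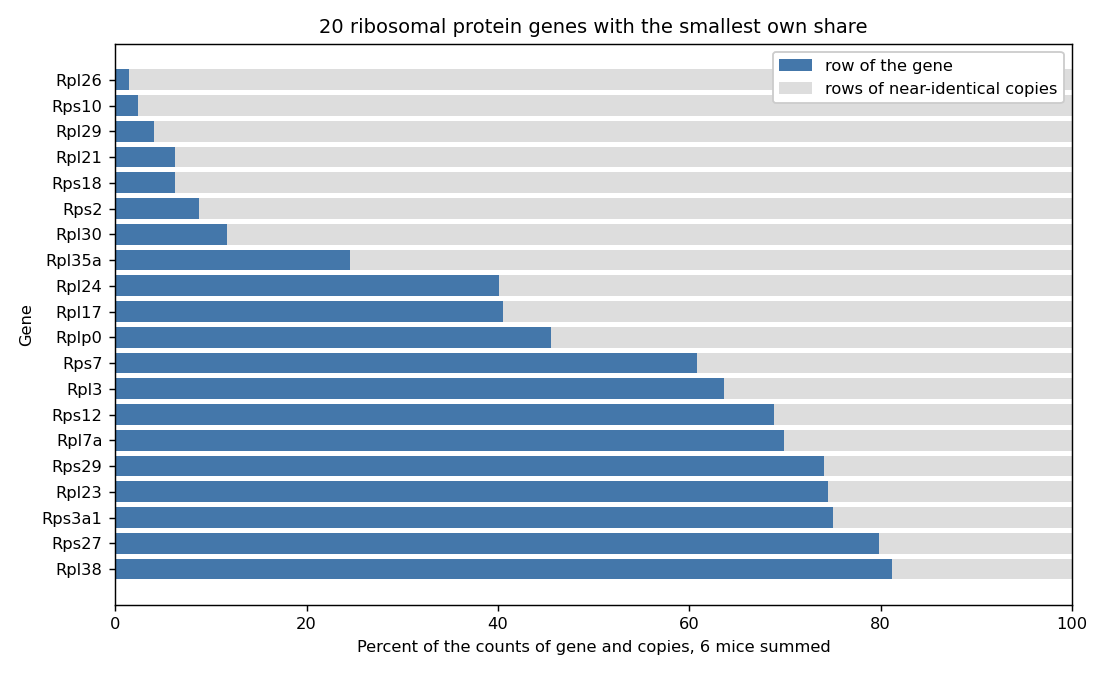
Bars show, for the 20 ribosomal protein genes with the smallest own share, the percentage of the counts of gene and copies (6 mice summed) that was on the gene's own row (blue) and on rows of near-identical copies (grey). Rpl26 is lowest, at 1.41%, and 11 genes are under 50%.

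Because of this, levels of single genes are levels of rows. Per kilobase of exon, the highest were Rplp1 with 1952 CPM, Rps15 with 971 and Rps3a1 with 773, and the lowest Rpl21 with 1.21, Rps10 with 1.26 and Rpl29 with 1.32, a 1618-fold range. The median of the 80 genes was 208 CPM per kilobase of exon. Rps15, a small subunit protein that nearly lacked counts on copies (99.7% on its own row), measured 624, 635 and 625 CPM in WT and 618, 647 and 521 CPM in IL-21isoTg mice. Rps3a1 measured 926, 777 and 695 CPM in WT and 721, 772 and 639 CPM in IL-21isoTg mice, and its copy Rps3a2 is annotated as a processed pseudogene with 27803 counts. The groups overlapped in both genes.

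At the low end, Rpl21 measured 3.70, 4.18 and 5.44 CPM in WT and 2.25, 3.54 and 5.50 CPM in IL-21isoTg mice, with 6.23% of its family counts on its own row. Rps10, a protein on the head of the small subunit, measured 2.93, 2.64 and 3.96 CPM against 1.79, 2.83 and 3.36 CPM. Rpl29 had 14, 38 and 49 counts in WT and 42, 58 and 4 counts in IL-21isoTg mice, and its interval of -1.68 to 1.52 was the widest of the 80. Per kilobase of coding sequence, 11 of the 80 own rows were under 0.1 of the level of the median gene, and after copies were added 4 families were: Rpl24, Rpl13a, Rpl7l1 and Rpl29. For Rpl24, 47.0% of the exon length is shared on the same strand with the gene Gm28037, and for Rpl13a 29.4% with Gm45713; both of these genes had 0 counts in all 6 libraries. How reads over shared exons were counted is not given in the sources used here.

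Ribosomal protein genes are often used as references in quantitative PCR, and 7 such genes were compared with 13 references of other kinds. Over the 6 mice Rpl32 and Rpl19 had the smallest SD of log2 CPM of all 20, 0.070 and 0.11, and Rplp0 had 0.153 and Actb 0.176. Rpl32 measured 576, 510.2 and 499 CPM in WT and 529, 531 and 529.9 CPM in IL-21isoTg mice, and Rpl19 364, 329 and 324 CPM against 339, 372 and 303 CPM. Their log2 fold changes were 0.00 ± 0.17 and -0.00 ± 0.17 (SE), with 95% intervals of -0.39 to 0.40 and -0.39 to 0.38. Rplp0 measured 932, 719 and 718 CPM in WT and 731, 821 and 726 CPM in IL-21isoTg mice, and Rpl4 1745, 1367 and 1245 CPM against 1304, 1392 and 1156 CPM, with the first WT mouse highest in both.

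The other references of the family were Rps18, Rpl13a and Rpl30. The own rows of Rps18 and Rpl30 held 6.25% and 11.7% of the counts of gene and copies, and that of Rplp0 held 45.6%. Rpl13a held 91.4%, and the gene that shares part of its exons, Gm45713, had 0 counts. Rps18 measured 47.8, 37.1 and 44.3 CPM in WT and 44.8, 40.4 and 27.0 CPM in IL-21isoTg mice, and its relative SD was 0.226 on its own row and 0.089 with copies. Rpl13a measured 38.1, 20.7 and 22.8 CPM against 20.2, 27.4 and 23.8 CPM (SD of log2 0.333). Rpl30 had the largest SD of the 20 references, 0.834. In edgeR's test no gene of either reference list reached an unadjusted p of 0.05.

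Of 8 paralog pairs, 5 had a paralog with at least 60 counts, and their ratios within a library were compared so that the level of the whole family does not enter. Rpl7l1 stood at 6.18%, 6.39% and 6.64% of the counts of Rpl7 in WT mice and at 5.18%, 5.89% and 5.72% in IL-21isoTg mice. All 3 transgenic mice were below all 3 WT mice, the one ratio of the 5 for which the groups did not overlap. Its mean log2 ratio differed by -0.19 (WT -3.96 ± 0.05, IL-21isoTg -4.15 ± 0.10, SD, n = 3), with an exact permutation p of 0.1, the smallest the design allows, and an adjusted p of 0.5 over the 5 pairs. Rpl7, the partner, measured 1220.4, 872 and 800.1 CPM in WT and 882, 919 and 769 CPM in IL-21isoTg mice.

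Rps27l stood at 44.4%, 22.4% and 26.6% of Rps27 in WT mice and at 26.8%, 28.5% and 51.5% in IL-21isoTg mice, high in the first WT and the third IL-21isoTg library. The difference in mean log2 ratio was 0.19 (exact permutation p = 0.5), and without the third IL-21isoTg mouse it was -0.11. Rps27 itself measured 184, 257 and 249 CPM in WT and 259.8, 227 and 237 CPM in IL-21isoTg mice. Rpl22l1, which is known to be repressed by its partner Rpl22, stood at 37.9%, 26.3% and 27.9% of it in WT mice and at 31.9%, 24.6% and 37.1% in IL-21isoTg mice, with a difference of 0.02 in mean log2 ratio (exact permutation p = 1). Rpl22l1 measured 114, 79.1 and 78.0 CPM against 82.3, 74.0 and 80.8 CPM, and Rpl22 300.3, 300.6 and 279 CPM against 258, 301 and 217 CPM. The 2 libraries with the highest Rps27l ratio were also those with the highest Rpl22l1 ratio.

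The rows of the remaining paralogs were low beside those of their partners. Rpl36al, outside the rule by its name, had 34, 16 and 31 counts in WT and 47, 35 and 2 counts in IL-21isoTg mice. On the same strand, 24.5% of its exon length is shared with the gene Gm49383. How reads over shared exons were counted is not given, so this low row need not mean a rare transcript. Rpl36al stood at no more than 0.953% of Rpl36a in WT mice. Both the highest and the lowest ratio of all mice were transgenic, in the first and the third IL-21isoTg mouse, the latter at 0.142%. The ratios of the genotypes thus overlapped (exact permutation p = 0.9). Rpl36a measured 161, 189 and 173 CPM in WT and 157, 175 and 131 CPM in IL-21isoTg mice. Rps4l, which the table lists as a transcribed processed pseudogene, was at 0.744%, 0.445% and 0.339% of Rps4x in WT and 0.287%, 0.397% and 0.358% in IL-21isoTg mice (exact permutation p = 0.3). Rps4x, the X-linked gene, measured 1273.5, 1048 and 970.2 CPM against 955, 1004 and 782 CPM, and Rpl3 910.5, 764 and 672 CPM against 665, 753 and 569 CPM; the first WT mouse was highest and the third IL-21isoTg mouse lowest in both.

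The muscle paralog Rpl3l had 1, 3 and 0 counts in WT and 9, 0 and 0 in IL-21isoTg mice, and Rpl39l, best known from testis, had 2, 0 and 1 counts in WT and 1, 7 and 11 in IL-21isoTg mice. The testis paralog Rpl10l had 0 counts in every library. Their partners were abundant, with Rpl39 at 211, 259 and 223 CPM in WT and 196, 236 and 204 CPM in IL-21isoTg mice. At these depths a genotype difference in the 3 rare paralogs was not detectable.

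Other parts of the translation machinery were taken from lists and read from the same edgeR fit, in which none of their genes was called. Of the ribosomal components outside the naming rule, Rack1, a scaffold on the small subunit, measured 1248, 1029 and 988 CPM in WT and 957, 1086 and 827 CPM in IL-21isoTg mice. The 4 genes of that list had a median log2 fold change of -0.12 (3 lower), which was 0.04 without the third IL-21isoTg mouse, and 0 with an unadjusted p under 0.05. The groups overlapped in each of the 4.

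Of 18 genes for elongation factors and other TOP mRNAs, 13 were lower and 5 higher, with a median of -0.11 that was 0.02 without the first WT mouse, and 1 had an unadjusted p under 0.05, Vim. Vim, which encodes the mesenchymal filament protein vimentin, measured 160.2, 215 and 162 CPM in WT and 329, 279 and 188 CPM in IL-21isoTg mice (log2 fold change 0.57 ± 0.24, SE; adjusted p = 0.809). Hnrnpa1, an RNA-binding protein, measured 593, 352 and 336 CPM against 256, 340 and 263 CPM (-0.58 ± 0.26). Beside Vim stand the fibroblast markers, 6 of 7 of which had a positive fold change, with a median of 0.58 and 3 at an unadjusted p under 0.05; their part in the value of Vim was not tested.

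The ribosome biogenesis list, nucleolar factors that process ribosomal RNA and assemble the subunits, had 28 of 32 genes lower, with a median of -0.19. Of all 17165 genes tested 8939 were lower. In the list 2 genes had an unadjusted p under 0.05, as did 5.81% of all genes tested. Dkc1, the pseudouridine synthase of the nucleolus, measured 38.0, 29.5 and 25.9 CPM in WT and 14.8, 26.1 and 14.7 CPM in IL-21isoTg mice (log2 fold change -0.74 ± 0.28, SE; adjusted p = 0.809 in edgeR's test). Polr1b, a subunit of RNA polymerase I, measured 30.0, 25.8 and 26.9 CPM against 21.8, 22.9 and 16.7 CPM (-0.43 ± 0.18), and its groups did not overlap. The groups did not overlap in 3 of the 32 genes of the list, and in 12.1% of all genes tested. The median of the list was -0.04 without the first WT mouse. Of 17 genes that sense or control ribosome dosage, 8 were higher and 9 lower, with a median of -0.07 that was 0.04 without the first WT mouse or without the second IL-21isoTg mouse. Eif4ebp1, the translation repressor that mTOR phosphorylates, measured 52.7, 27.4 and 42.4 CPM in WT and 97.5, 41.1 and 114 CPM in IL-21isoTg mice (log2 fold change 1.04 ± 0.39; adjusted p = 0.809), and Trp53, the gene for p53, 95.9, 62.8 and 68.0 CPM against 51.3, 65.7 and 37.7 CPM (-0.55 ± 0.25). In both genes mice of the 2 genotypes overlapped.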

How the data were processed

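MECs of 3 WT and 3 IL-21isoTg mice were compared, with groups and mouse numbers from the labels. The deposited values used here are raw counts per gene. Per the labels, the authors used FastQC 0.11.7, Trimmomatic 0.38, HISAT2 2.1.0, SAMtools 1.9, featureCounts 1.6.3 and DESeq2 1.24.0 with build mm10; libraries were poly(A)-selected and directional. The settings of counting for strand, multi-mapping and overlapping reads are not given in the sources used here, and they decide how reads are split between a gene and its copies. The deposited normalized table was not used, and the authors' columns of fold changes and p-values were neither used nor compared.

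Genes were fitted with edgeR 4.0.16 (R 4.3.3), TMM factors, filterByExpr (minimum count 10, minimum total 15) and the robust quasi-likelihood test, with genotype as the only term and Benjamini-Hochberg adjustment over 17165 genes (threshold 0.05). CPM are on TMM effective library sizes, log2 values add 0.5 CPM, and fold changes are IL-21isoTg against WT. Shares and ratios were compared by two-sided exact permutation over mice, and DESeq2 1.42.0 and limma-voom 3.58.1 were alternatives. The fit was tested on simulated data. Copies were found with blastn 2.17.0 against GENCODE M21 transcripts (GRCm38); start and end were equal to the deposited coordinates for 84 of 84 of the genes and paralogs described. Start sequences are RefSeq, GRCm38.p6.

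The genes described and the lists were chosen with earlier results of these data known. Values per mouse are given for paralog pairs, the 5 smallest p in each direction, the 3 highest and 3 lowest levels per kilobase of exon, the 3 steadiest and 3 least steady genes, ribosomal reference genes, genes at the minimum count, and the 2 smallest p in each related list. A value that this rule names in 1 related list is not reported here. P-values measure the spread between mice, and counting intervals were not used. No amino acid sequence was used here.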

Additional observations from a re-analysis of the deposited data

How the results depend on the processing

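Under every alternative run (2 other normalizations, no filter, DESeq2, limma-voom, the salivary list removed, each mouse left out, and copies added, which was chosen after seeing the data) 0 of the 80 genes and 0 genes of the 5 related lists were called. The median log2 fold change of the 80 genes stayed negative, between -0.17 and -0.018 with 1 mouse left out. The log2 ratio of the ribosomal shares ranged from -0.60 to -0.10 with 1 mouse left out and was -0.10 on TMM effective sizes. Depth limits the genes with few counts on their own row. A gene of the 80 reached an unadjusted p under 0.05 in 5 alternatives: Rpl7a with DESeq2 (0.0435), without the filter (0.0252), without the third WT mouse (0.00967) and without the third IL-21isoTg mouse (0.0304), and Rps2 without the second IL-21isoTg mouse (0.00461).

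The labels number the mice and do not say whether same-numbered mice of the genotypes belong together. Deviations of same-numbered mice correlated at -0.224, 0.068 and -0.062, values that cannot decide this. With the replicate block 0 genes were called, the median was -0.11, the log2 ratio of shares -0.39, and the smallest adjusted p was 0.992; the paired differences in log2 ratio for Rpl7l1 to Rpl7 averaged -0.19.

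No fold change whose sign turned was called in any fit. Rpl19 was 0.009 with DESeq2's size factors, 0.010 with DESeq2's test and 0.026 without the salivary list, and Rplp1 0.010 without that list. Rpl32 was -0.004 with the upper quartile and -0.005 without the filter, Rpl21 0.19 with copies added, and Rpl29 0.046 with limma-voom. With 1 mouse left out, the ranges that crossed 0 were -0.36 to 0.14 for Rpl13a, -0.99 to 0.17 for Rpl17, -0.077 to 0.077 for Rpl19, -0.61 to 0.016 for Rpl21, -0.29 to 0.022 for Rpl22l1, -0.10 to 0.042 for Rpl28, -0.49 to 0.34 for Rpl29, -1.08 to 0.44 for Rpl30, -0.035 to 0.083 for Rpl32, -0.014 to 0.20 for Rpl37a, -0.29 to 0.047 for Rpl7, -0.12 to 0.092 for Rplp0, -0.062 to 0.068 for Rplp1, -0.14 to 0.017 for Rps15, -0.052 to 0.24 for Rps21, -0.054 to 0.16 for Rps27 and -0.018 to 0.48 for Rps27l. The log2 ratio differences that crossed 0 were -0.11 to 0.48 for Rps27l to Rps27, -0.11 to 0.18 for Rpl22l1 to Rpl22 and -0.41 to 0.38 for Rpl36al to Rpl36a. Among gene lists, the median turned without the first WT mouse for the TOP mRNAs (0.024), the dosage genes (0.037, and 0.036 without the second IL-21isoTg mouse) and the references other than ribosomal (0.007), and without the third IL-21isoTg mouse for the components outside the naming rule (0.042). Many ranges on one side of 0 also moved by over 1.5 times, and the ones given here are examples. They were -0.98 to -0.39 for Rpl7a, -0.82 to -0.10 for Rpl24, -0.40 to -0.13 for Rpl23a and -0.45 to -0.17 for Rpl7l1. Others were -1.24 to -0.11 for Rps2, -0.52 to -0.23 for Rpl35a, -0.28 to -0.013 for Rpl4 and -0.35 to -0.008 for Rps18. Among genes with a positive value Rpl10 ranged from 0.078 to 0.24, and among ratios Rps4l to Rps4x ranged from -0.64 to -0.13. The cause was not tested.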
